A study of Rattus norvegicus with 4 samples.

Results

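Interferon-stimulated genes are the genes that cells switch on when interferon reaches its receptor. Here 44 of them were followed through the cell classes of the irradiated rat esophagus. They were matched by symbol, and all 44 were found among the 30017 symbols of the count tables. Single-cell RNA-seq libraries came from male Sprague-Dawley rats, 6 weeks old, with no genetic change named. The esophageal region received X-rays under 3 schedules. The control library (0Gy_7d) had 5 sham fractions of 0 Gy and was taken at day 7, the 35Gy_7d library had 1 dose of 35 Gy and was taken at day 7, and the remaining libraries had 5 daily fractions of 7 Gy and were taken at day 7 (5x7Gy_7d) or day 14 (5x7Gy_14d). Each library is 1 pool of 5 rats. All tissue was kept cold in storage solution, shipped, digested with enzymes and cleared of dead cells before droplet capture.

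Type I interferons (interferon alpha and beta) and type III interferons signal through JAK1 and TYK2 to a complex with STAT2 and IRF9, which binds the interferon-stimulated response element. Interferon gamma, the type II interferon, signals through JAK1 and JAK2, and its target genes carry the gamma-activated sequence. The genes so induced make proteins that block viral replication, sense foreign or misplaced nucleic acid, conjugate ISG15, draw T cells or present antigen. In tissues, radiation is known to be able to engage this pathway through DNA that reaches the cytosol, and many of the same genes also have a basal level without any infection.

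Promoter sequences are shown for 6 members on which the results below turn, because they show where the response element lies in genes that were above the control at day 14 in most cell classes and in Bst2, which was below it. Promoters came from RefSeq (build GRCr8), which held an entry for 34 of the 44 members. Both strands of the 250 bases before each start were searched for GAAA, any 2 bases and again GAAA, the core letters of the interferon-stimulated response element, and for TTCNNNGAA, those of the gamma-activated sequence. The first was found in 19 of 34 members (55.9%) and in 992 of 27457 genes in all (3.61%). The second was found in 8 of 34 members (23.5%) and in 2250 of all genes (8.19%). In the sequences, written 5′ to 3′ on the gene's strand, capitals mark the match to the first motif.
Oas1a: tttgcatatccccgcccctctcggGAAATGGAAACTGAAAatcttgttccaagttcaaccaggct
Isg20: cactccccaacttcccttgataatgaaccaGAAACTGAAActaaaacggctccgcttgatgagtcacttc
Lgals3bp: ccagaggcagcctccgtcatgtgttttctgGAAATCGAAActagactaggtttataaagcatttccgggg
Ifit3: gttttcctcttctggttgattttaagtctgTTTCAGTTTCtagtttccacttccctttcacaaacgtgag
Irf7: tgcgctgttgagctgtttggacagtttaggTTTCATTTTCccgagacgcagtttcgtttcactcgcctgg
Bst2: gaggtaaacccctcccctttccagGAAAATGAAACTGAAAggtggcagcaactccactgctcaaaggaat

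The Oas1a stretch lies at chr12:41330401-41330465 on the plus strand and holds overlapping matches 41 and 35 bases before the start. Isg20 lies at chr1:142239937-142240006 on the plus strand, with its match 92 bases before the start. Lgals3bp lies at chr10:104127859-104127928 on the minus strand, with its match 50 bases before the start. Ifit3, at chr1:241527252-241527321 on the plus strand, and Irf7, at chr1:205800053-205800122 on the minus strand, hold the motif on the opposite strand, 44 and 69 bases before the start. Bst2, at chr16:18255053-18255122 on the minus strand, has overlapping matches 131 and 125 bases before the start. Not every member holds these letters: Mx1 holds no match to the response element in its 250 bases, and Irf1 holds the gamma-activated letters 142 bases before its start. A match is a description of the letters only.

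The 4 libraries held 10468 to 12505 barcodes and 59805782 to 109618791 UMIs (unique molecular identifiers, each 1 captured RNA molecule). After filters, 8878 to 11357 cells per library entered, with medians of 5058 to 6271 UMIs per cell. Cells were put into classes by marker genes, and a class name means cells that carry those markers. Between 10.2% and 13.5% of cells in a library fell into no class. Pairs of libraries shared 26 to 38 barcodes. Classes differed in size between libraries: the fibroblast class held 3239 control cells, 567 after 35 Gy, 75 in 5x7Gy_7d and 2886 at day 14, and the glial class held 422, 158, 59 and 571. Levels are counts per 1000000 UMIs of the class in a library (CPM), and series of 4 levels below always run control, 35Gy_7d, 5x7Gy_7d, 5x7Gy_14d. With 1 pooled library per group there is no test between groups and no estimate of the spread between rats. Intervals are exact 95% intervals for counting error only. Ratios are log2 ratios of levels, given where both libraries of a pair held 100 or more cells of the class and for genes with at least 20 UMIs in the pair, called measured here. The 3 comparisons with the control share that 1 library, and the day 14 comparison differs from it in day as well as in dose.

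At day 14 after the fractionated dose, more measured members were above the control than below it in every class compared. Their median log2 ratio lay between 0.36 in macrophages and 1.52 in glial cells, while the median over all genes lay between 0.02 and 0.15 in the glial, blood endothelial, fibroblast, epithelial and smooth muscle classes. At day 7 the classes divided. After 35 Gy the blood endothelial median was -0.78 and the fibroblast median was 0.44. The fractionated dose at day 7 gave 0.94 in smooth muscle cells, 0.31 in blood endothelial cells, 0.14 in epithelial cells, -0.06 in pericytes and -0.47 in macrophages. The smooth muscle, pericyte and macrophage medians of that library changed sign under other settings.

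**Figure D1:**
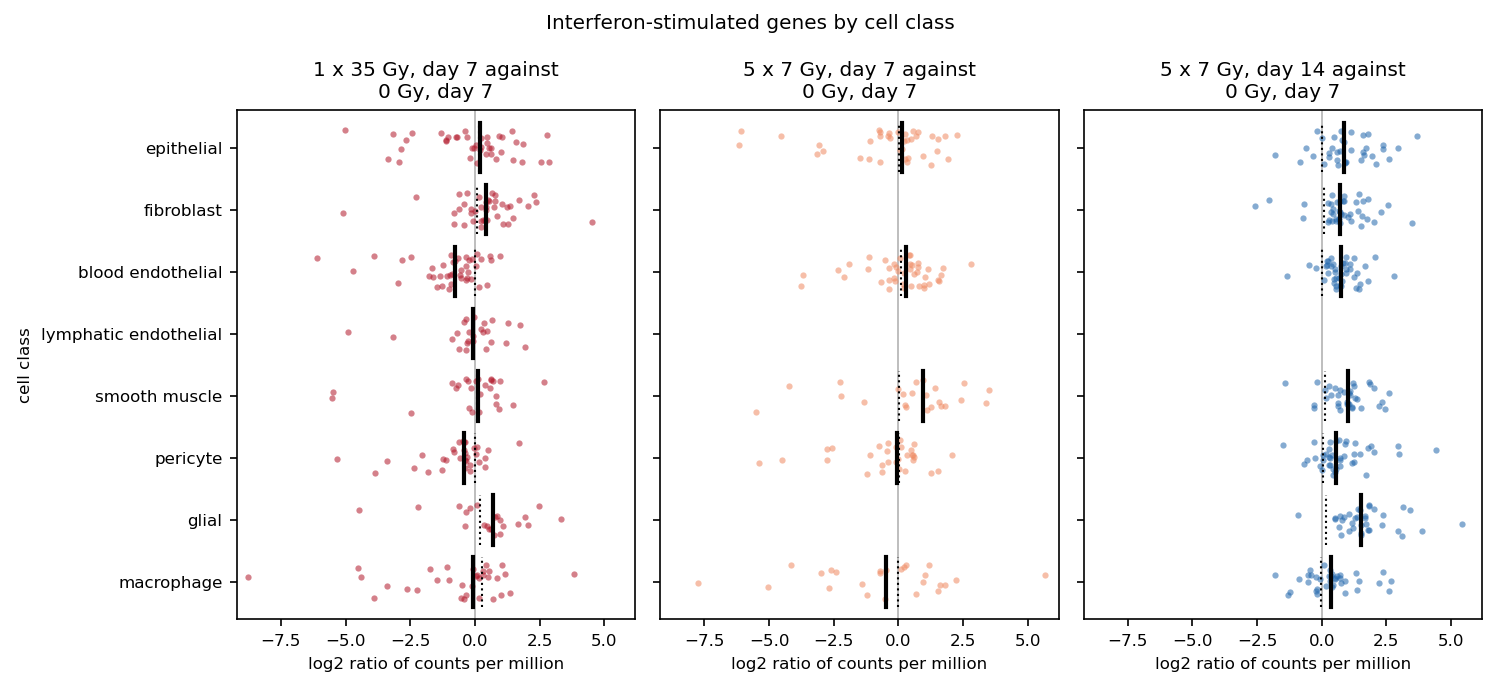
Log2 ratio of CPM against the control for each measured interferon-stimulated gene (dots), by cell class, in 3 panels for 35Gy_7d, 5x7Gy_7d and 5x7Gy_14d. Thick bars are member medians, dotted bars the medians of all genes, and classes with fewer than 100 cells are left blank. Day 14 dots lie mostly right of 0, with a glial median of 1.52, while blood endothelial dots after 35 Gy lie mostly left of it, with a median of -0.78.

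The glial class of the esophagus wall, its nerve-associated cells, had the highest member median of the classes compared at day 14: 34 of 35 measured members were above the control and 27 were at least 2-fold above it, beside 9.26% of all genes. None was at least 2-fold below (all genes 3.36%). Mx1, a dynamin-like GTPase that traps viral nucleocapsids, was at 0.667, 24.4, 31.5 and 28.8 CPM in glial cells. The control value is 1 UMI, and the day 14 log2 ratio of 5.43 has an interval of 2.91 to 10.76. Control glial cells were the lowest of the 4 libraries for Mx1.

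Isg15, a ubiquitin-like protein joined to other proteins, was at 7.34, 41.4, 21.0 and 77.8 CPM in glial cells. Its day 14 ratio was 3.40 (2.53 to 4.43). Mx2, the second Mx GTPase, was at 11.3, 24.4, 0 and 87.6 (ratio 2.95, 2.24 to 3.75). Day 14 was the highest library for both genes, and their day 14 intervals stand clear of those of the control.

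Oas1a makes the 2-5A messenger that activates RNase L. It was at 4.67, 21.9, 31.5 and 41.0 CPM in glial cells, with a day 14 ratio of 3.13 (2.04 to 4.49). Irf7, the transcription factor that drives later interferon alpha genes, was at 4.00, 7.31, 10.5 and 20.1. Both had their lowest level in the control and their highest at day 14. In the 5x7Gy_7d library 59 glial cells gave these levels, and 1 UMI there equals 10.5 CPM, so no ratio was formed.

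By role, 17 of 18 measured antiviral effectors were higher in day 14 glial cells than in control glial cells, 16 of them at least 2-fold (median 1.72). The ISG15 and conjugation group was higher for 7 of 7 (5 at least 2-fold, median 1.23), transcription factors for 4 of 4 (3 at least 2-fold, median 1.70) and antigen processing genes for 2 of 2. Ifi27, a mitochondrial and nuclear envelope protein of the interferon set, was at 385, 653, 651 and 1105 CPM. Bst2 was the exception below the control, at 66.1, 70.7, 63.0 and 35.1. Bst2 (tetherin) holds budding virus particles at the cell surface.

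After 35 Gy the glial class had 22 measured members, 16 higher and 6 lower, with a median of 0.68 (all genes 0.21). Of these, 6 were at least 2-fold higher, beside 10.5% of all genes, and 2 lower, beside 8.64%. Ifit3, which binds the Ifit1 protein and helps it hold foreign RNA, was at 5.34, 53.6, 10.5 and 19.0 CPM, and its 35 Gy ratio was 3.33 (2.11 to 4.71). Among glial libraries Ifit3 was highest after 35 Gy rather than at day 14.

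Markers of other cells also differed between the glial libraries. Summed neutrophil markers in the glial class were at 0.667, 643, 21.0 and 1.18 CPM, with 5, 1, 5 and 4 of 6 markers at 0. Summed macrophage markers were at 20.02, 31.7, 189 and 233, with 1, 3, 2 and 0 of 8 at 0, and summed fibroblast markers were at 6946, 3414, 5480 and 4833. In the median glial cell the glial markers themselves made up 29.7, 50.4, 54.8 and 30.2 UMIs per 10000, and fibroblast markers 64.4, 27.4, 50.1 and 45, so that fibroblast markers exceeded glial ones in the control and at day 14. Their part in the glial values was not tested. Each cell was also thinned to 1000 UMIs, and 40 members were counted, with Ifi27, Bst2, Irf1 and Cxcl10 left out. UMIs of 2 or more of these 40 members were carried by 4.76% of 399 control glial cells. The share was 10.6% of 132 cells after 35 Gy and 25.1% of 550 cells at day 14 (21.5% to 28.9%). Without thinning these 3 shares were 27.2%, 37.3% and 69.5%, and the median glial cell held 2857, 2188 and 3755 UMIs.

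**Figure D2:**
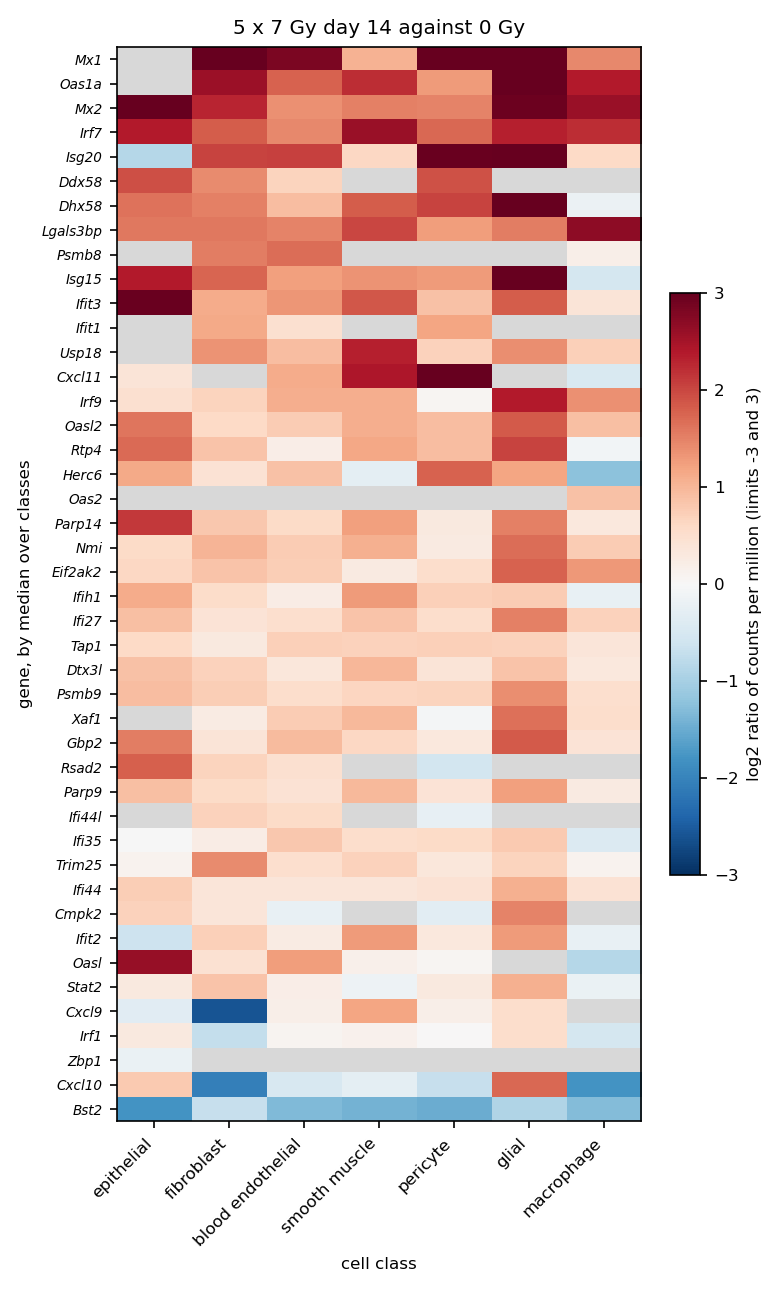
Log2 ratio of 5x7Gy_14d to the control for the 44 members (rows, ordered by their median over classes, highest first) in 7 cell classes (columns). The colour scale runs from -3 to 3, and grey cells are not measured. Most rows are above 0 in most classes, the glial column holds 34 of 35 measured members above the control, and the Bst2 row is below 0 in all 7 classes.

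In blood endothelial cells the same gene list was lower after 35 Gy and higher at day 14. After 35 Gy, 33 of 41 measured members were below the control, 14 at least 2-fold (all genes 12.4%), and none was at least 2-fold above it (all genes 7.68%). At day 14, 39 of 42 were above the control, 12 at least 2-fold (all genes 5.44%), and 1 was at least 2-fold below (all genes 5.34%). In 5x7Gy_7d 25 of 42 were above the control, 9 at least 2-fold (all genes 11.6%), and 7 were at least 2-fold below (all genes 10.5%). Of 43 members with at least 20 UMIs, 29 had their lowest level in the 35 Gy library (29.2% of all genes did) and 29 had their highest at day 14 (19.3% of all genes).

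Among endothelial antiviral effectors, Mx2 was at 29.4, 9.39, 27.4 and 75.8 CPM. Ifit2, which binds viral RNA, was at 220, 64.0, 171 and 261. Ifit1, which recognises RNA with an incomplete cap, was at 11.0, 0.742, 2.18 and 15.4, with a 35 Gy ratio of -3.89 (-6.23 to -2.25). For each of these genes the 35 Gy library was the lowest and the day 14 library the highest.

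The nucleotide-modifying pair Rsad2 (viperin) and Cmpk2 was at 16.3, 2.97, 22.2 and 22.6 and at 15.7, 2.23, 17.8 and 13.6 CPM. Both were low after 35 Gy alone. Oas1a followed another order, at 22.6, 34.9, 74.4 and 77.3, above the control in all 3 irradiated libraries. Lgals3bp, a secreted glycoprotein that binds galectins, was at 37.5, 52.2, 111 and 105, also above the control in all 3. Mx1 was at 1.84, 2.97, 13.1 and 12.9, with similar levels at day 7 and day 14 of the fractionated schedule.

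Isg15 in blood endothelial cells was at 101, 83.8, 140.5 and 238 CPM. All 7 members of its conjugation group were below the control after 35 Gy, none at least 2-fold (median -0.55), and all 7 were above it at day 14 (median 0.56). Irf7 was at 18.9, 6.18, 17.4 and 51.1. Isg20, an exonuclease that degrades RNA, was at 8.92, 9.89, 27.8 and 36.8, with a day 14 ratio of 2.04 (1.54 to 2.59). Bst2 was at 685, 460, 308 and 272, and each irradiated library was below the control.

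Endothelial cells were divided further by markers into venular, capillary and arterial cells. The make-up of the class differed: capillary cells numbered 548 of 1058 in the control and 107 of 687 after 35 Gy, venular cells 139 and 210, and arterial cells 126 and 174. After 35 Gy the member median was -0.99 in venular cells (35 measured, 17 at least 2-fold lower beside 13% of all genes), -0.20 in capillary cells (31 measured, 6 lower beside 13.6% and 3 higher beside 6.87%) and -0.27 in arterial cells (25 measured, 5 lower beside 8.09% and 1 higher beside 12.4%). No venular member was at least 2-fold higher (all genes 11.4%). At day 14 it was 0.41 in venular cells (42 measured, 13 at least 2-fold higher beside 7.57% and 2 lower beside 4.22%), 0.98 in capillary cells (42 measured, 20 higher beside 5.56% and 1 lower beside 5.26%) and 0.77 in arterial cells (38 measured, 16 higher beside 7.64% and 1 lower beside 5.37%). In 5x7Gy_7d it was -0.12 in venular cells (2 of 32 higher beside 13.7% and 7 lower beside 11.3%), 0.63 in capillary cells (13 of 34 beside 11.3% and 3 beside 13.8%) and 0.36 in arterial cells (7 of 24 beside 13.3% and 2 beside 10.1%). Venular cells thus had the lowest median of the 3 subtypes in each comparison with the control. The difference between subtypes was not tested.

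Capillary cells at day 14 had 21 of 22 measured antiviral effectors above the control, 13 at least 2-fold (median 1.16). Isg15 was at 125, 139, 200.4 and 330 CPM in capillary cells and at 91.6, 76.0, 117 and 208 in venular cells. Oas1a was at 24.6, 93.5, 100.2 and 85.1 in capillary cells, so its 35 Gy level was above the control by a ratio of 1.92 (1.18 to 2.66). In venular cells Oas1a was at 15.7, 16.5, 36.2 and 44.3, with hardly any distance between the control and 35 Gy. In arterial cells it was at 26.9, 50.5, 122 and 135.

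The chemokine Cxcl11, which draws T cells through CXCR3, had its highest level among the endothelial subtypes in venular cells at day 14. It was at 5.78, 9.30, 6.58 and 67.3 CPM there, with a day 14 ratio of 3.54 (2.48 to 4.87). In capillary cells Cxcl11 was at 1.37, 0, 4.66 and 13.1, and in arterial cells at 0, 9.87, 0 and 0.474. Its 2 relatives did not share this order: venular Cxcl10 was at 598, 5.17, 49.3 and 385.5, with the control highest.

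Markers of other cells in the blood endothelial class differed between libraries too. Summed neutrophil markers were at 2.10, 892, 16.5 and 4.44 CPM, monocyte markers at 327.5, 1125, 615.5 and 409, macrophage markers at 15.5, 25.5, 9.57 and 166, and fibroblast markers at 1427, 240, 180 and 783. Their part in the endothelial values was not tested. The cells of this class also came from different clusters when cells were grouped without the members: the main cluster in the control and at day 14 held 984 control cells and 1413 day 14 cells, while another held 438 cells after 35 Gy and 647 in 5x7Gy_7d but 9 in the control.

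**Figure D3:**
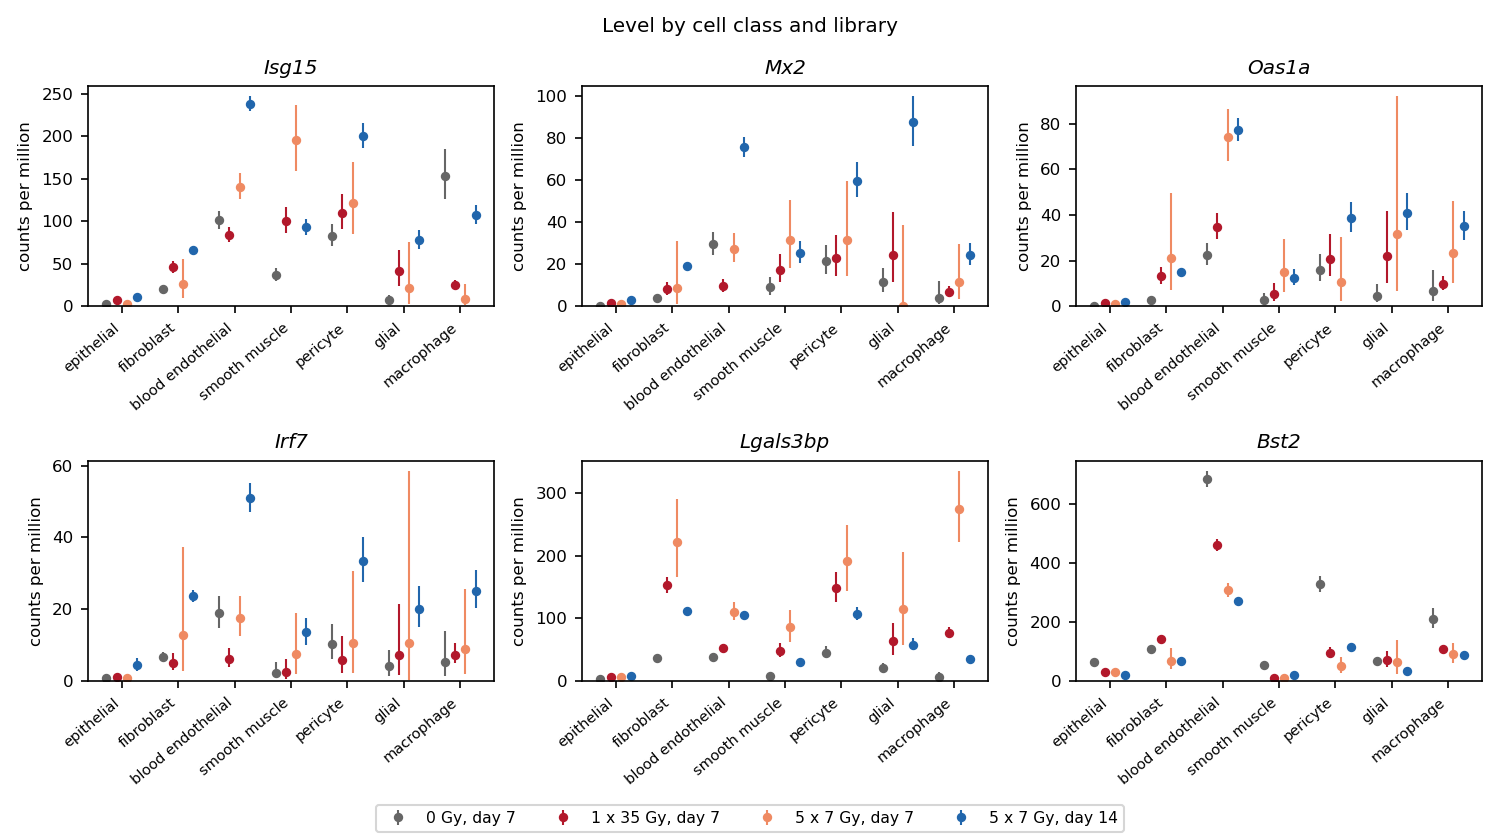
Levels in CPM of Isg15, Mx2, Oas1a, Irf7, Lgals3bp and Bst2 in 7 cell classes, with 1 point per library and exact 95% Poisson intervals. Isg15 in blood endothelial cells runs from 83.8 after 35 Gy to 238 at day 14, and Bst2 there is highest in the control, at 685.

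The 2 schedules were compared directly at day 7. In blood endothelial cells 33 of 40 measured members were higher in 5x7Gy_7d than in 35Gy_7d, 23 at least 2-fold (all genes 12.9%), and 1 was at least 2-fold lower (all genes 8.28%). The median was 1.07. It was 1.03 in venular cells (16 of 31 at least 2-fold higher, all genes 15.2%), 0.82 in capillary cells (10 of 28, all genes 10.5%), 0.71 in arterial cells (10 of 24, all genes 8.61%) and 0.83 in smooth muscle cells (4 of 18, all genes 10.7%). Members at least 2-fold lower numbered 0 in venular (all genes 10.2%), 1 in capillary (10.2%), 1 in arterial (11.7%) and 0 in smooth muscle cells (13.9%). In epithelial cells the median was -0.09 (6 of 36 higher, 8.02%, and 7 lower, 13.4%), in pericytes 0.21 (2 of 23 higher, 11.1%, and 3 lower, 13.9%) and in macrophages 0.41 (10 of 31 higher, 12.2%, and 3 lower, 17.2%).

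The members furthest apart between schedules in blood endothelial cells were Cmpk2, with a ratio of 3.003 (1.94 to 4.23), Rsad2, with 2.90, and Oasl2, with 2.51 (2.14 to 2.89). Oasl2, a 2-5A synthetase relative, was at 38.8, 19.8, 112 and 66.1 CPM and so highest in 5x7Gy_7d. Herc6, the rodent ligase that attaches ISG15, had a ratio of 2.01. Lower after the fractionated dose were Cxcl11 (-1.33), Nmi (-0.73), an adaptor of interferon and STAT signalling, and Bst2 (-0.58).

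From day 7 to day 14 of the fractionated schedule the member median in blood endothelial cells was 0.40 (30 of 43 higher, 12 at least 2-fold beside 12.3% of all genes). It was 0.76 in pericytes (14 of 40 at least 2-fold, all genes 15.7%), 0.75 in epithelial cells (11 of 33, all genes 14.8%) and 0.03 in smooth muscle cells (6 of 35, all genes 15.8%). It was 0.72 in venular (14 of 42, 12.7%), 0.15 in capillary (11 of 42, 14.5%), 0.37 in arterial (8 of 39, 12.9%) and 0.24 in macrophage cells (13 of 37, 16.9%). Outside smooth muscle, few members were at least 2-fold lower in this comparison. There were none in blood endothelial (all genes 12.1%), epithelial (13.1%) and capillary cells (12.1%). Arterial cells (12.8%) and pericytes (11.9%) each had 1, venular cells 2 (13.4%) and macrophages 3 (17.9%). In smooth muscle cells 4 of 35 were at least 2-fold lower, not a smaller share than the 8.25% of all genes.

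In the fibroblast class Mx1, Oas1a and Lgals3bp were above the control in every irradiated library. After 35 Gy 29 of 41 measured members were above the control, 11 at least 2-fold (all genes 11.4%), and 2 were at least 2-fold below (all genes 12.2%). At day 14, 37 of 41 were above, 15 at least 2-fold (all genes 9.45%), and 2 at least 2-fold below (all genes 3.91%). Mx1 was at 1.46, 33.6, 21.3 and 16.5 CPM, highest after 35 Gy, with a ratio there of 4.52 (3.97 to 5.12).

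Lgals3bp in fibroblasts was at 37.1, 153, 222 and 112 CPM, and its 35 Gy ratio was 2.05 (1.89 to 2.20). Oas1a was at 2.53, 13.1, 21.3 and 15.1. Psmb9, an immunoproteasome subunit, was at 23.5, 76.7, 29.9 and 39.1. All 3 had their lowest level in the control, but Psmb9 stood apart from it chiefly after 35 Gy.

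Isg15 in fibroblasts was at 19.7, 46.1, 25.6 and 65.8, Mx2 at 3.86, 7.99, 8.54 and 18.9, and Isg20 at 5.75, 9.59, 12.8 and 23.4 CPM. These 3 were highest at day 14. The chemokines went the other way, with Cxcl10 at 231, 48.2, 0 and 55.8 and Cxcl9 at 37.5, 21.3, 0 and 6.27. Cxcl9 and Cxcl10 both draw T cells through CXCR3. The 5x7Gy_7d values rest on 75 cells. In the fibroblast class neutrophil markers were at 0.386, 157.5, 0 and 1.26 and macrophage markers at 11.7, 23.7, 0 and 93.4. Fibroblasts after 35 Gy also lay in another cluster, which held 582 cells of that library and 0 of the control, while the main control clusters, with 2534, 1093 and 574 control cells, held 55, 41 and 10 cells after 35 Gy. The 35 Gy values thus compare different fibroblast clusters, and the part of this and of the markers was not tested.

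Smooth muscle cells and pericytes, the mural cells around vessels and in the muscle coats, differed at day 7. After 35 Gy the smooth muscle median was 0.13, with 2 of 26 measured members at least 2-fold higher (all genes 6.98%) and 3 lower (10.4%). The pericyte median was -0.41, with 1 of 32 higher (7.91%) and 9 lower (13.3%). After the fractionated dose at day 7 it was 0.94 in smooth muscle, with 11 of 23 at least 2-fold higher (9.65%) and 5 lower (11.7%), and -0.06 in pericytes, with 3 of 30 higher (12.3%) and 7 lower (15.9%). Smooth muscle had its measured antiviral effectors higher for 10 of 12 in that library, 8 at least 2-fold. Both 35 Gy medians and the pericyte median in 5x7Gy_7d changed sign under other settings (0.32 for pericytes after 35 Gy with every cell weighted equally, -0.05 for smooth muscle with median-of-ratios scaling), and over the 5 smooth muscle members with at least 100 UMIs in the 5x7Gy_7d pair the median was -2.23.

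The pericyte class was mixed. In the median pericyte its own markers made up 46.8, 39, 56.4 and 41.3 UMIs per 10000, and the markers of the next class made up 36.7 (fibroblast), 39.2 (smooth muscle), 60.1 (fibroblast) and 30.5 (fibroblast). Clusters named pericyte were 44.1% and 67.9% pericytes by the gate. Summed fibroblast markers in the pericyte class were at 4701, 4496, 9479 and 3341 CPM, smooth muscle markers at 3064, 5391, 4384 and 3835, and neutrophil markers at 2.14, 268, 13.9 and 11.3. Their part in the pericyte values was not tested.

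In smooth muscle cells Isg15 was at 36.6, 100.5, 195 and 93.2 CPM. Lgals3bp was at 7.58, 48.5, 85.5 and 30.5, and Oasl2 at 9.82, 8.87, 57.6 and 21.0. These 3 were highest in 5x7Gy_7d, with ratios to the control of 2.42, 3.495 and 2.55. Mx1 was at 2.68, 0.591, 27.9 and 5.50, again highest there. Of 37 members with at least 20 UMIs in smooth muscle cells, 18 were highest in 5x7Gy_7d (32.7% of all genes) and 15 at day 14 (27% of all genes).

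At day 14 the smooth muscle median was 1.02 (19 of 36 at least 2-fold higher, all genes 6.99%, and 1 lower, 3.04%) and the pericyte median 0.54 (12 of 41 higher, 5.68%, and 1 lower, 2.91%). In pericytes Isg15 was at 83.0, 110, 122 and 200.5 CPM, Isg20 at 3.21, 8.55, 3.48 and 25.1, and Cxcl11 at 0.536, 4.75, 3.48 and 11.6. Mx1 in pericytes was at 0, 14.3, 24.4 and 12.7, at least 7.91-fold higher at day 14 than the limit of 3 UMIs that a control count of 0 allows. Of 42 pericyte members, 29 were highest at day 14 (22% of all genes).

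Epithelial cells held the members at low levels. Mx2 was at 0.220, 1.29, 0.845 and 2.86 CPM, Isg15 at 2.01, 7.36, 2.56 and 10.4, and Ifit3 at 0.367, 1.02, 0.227 and 2.86. At day 14, 30 of 36 measured members were above the control, 15 at least 2-fold (all genes 7.89%), and 1 at least 2-fold below (5.62%). After 35 Gy 10 of 41 were at least 2-fold higher (9.84%) and 11 lower (10.6%), and in 5x7Gy_7d 7 of 37 were higher (11.5%) and 9 lower (12.3%), so that at day 7 members lay on both sides of the control. Day 14 was the highest library for 28 of 42 members in epithelial cells (24.6% of all genes). The libraries' epithelial cells lay in different clusters: those with 1042, 880 and 396 control cells held 0 cells of either day 7 irradiated library and 46, 209 and 54 of day 14. Those with 826 and 1085 cells after 35 Gy, and with 1905 and 2355 in 5x7Gy_7d, held 0, 7, 19 and 7 control cells. The part of this split in the epithelial values was not tested.

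Parp14, an ADP-ribosyltransferase that works with Parp9 and Dtx3l, was at 2.45, 4.99, 6.08 and 10.6 CPM in epithelial cells, above the control in each irradiated library. Mx1 was at 0 in the control and 0.532 after 35 Gy, at least 7.25-fold above the limit of 3 UMIs. The epithelial median at day 14 was 0.88. Basal epithelial cells at day 14 had a smaller median of 0.52, with 6 of 25 measured members at least 2-fold higher (4.47%) and 3 lower (4.23%). The make-up of the class differed: basal cells numbered 1013 of 2327 in the control and 250 of 378 at day 14, suprabasal cells 1118 and 97. The part of this in the epithelial values was not tested. The day 14 epithelial class held 378 cells, against 2327 to 6013 in the other libraries.

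Macrophages held members at least 2-fold above and at least 2-fold below the control in the same library, as they did genes in general. The share of members higher after 35 Gy did not exceed that of all genes. After 35 Gy 5 of 33 measured members were at least 2-fold higher (all genes 18.6%) and 10 lower (12.6%); in 5x7Gy_7d it was 7 of 25 higher (15.4%) and 9 lower (19.1%). Lgals3bp was at 5.39, 77.1, 274 and 34.6 CPM. Oasl, a 2-5A synthetase relative that aids RIG-I, was at 286, 12.6, 8.75 and 157, Isg15 at 154, 25.1, 8.75 and 107, and Ifit2 at 203.5, 9.72, 32.1 and 174. In macrophages the last 3 were low in both day 7 irradiated libraries.

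At day 14 the macrophage median was 0.36, with 7 of 37 at least 2-fold higher (8.73%) and 3 lower (5.25%). Oas1a was at 6.74, 9.72, 23.3 and 35.1 CPM in macrophages, above the control throughout, though little above it after 35 Gy. The control level rests on few UMIs, since 3 UMIs there equal 4.04 CPM. Monocyte markers in the macrophage class were at 127, 2938, 475 and 173 CPM. Most macrophages of the control and day 14 came from 1 cluster (208 and 805 cells), which held 4 cells after 35 Gy, and most of the 35 Gy cells from another (802 cells), which held 0 control cells. The part of these differences in the macrophage values was not tested.

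Lymphatic endothelial cells were compared only after 35 Gy, with 4 of 25 measured members at least 2-fold higher (4.98%) and 2 lower (13.5%), and a median of -0.06 that changed sign under other settings. Isg15 was at 49.1 CPM in the control and 188 after 35 Gy in lymphatic cells, a ratio of 1.94 (1.56 to 2.32). Ifit3 was at 18.7 and 63.3 there. In the same pair of libraries Isg15 was above the control in capillary and arterial cells too. It was below the control in venular and pooled blood endothelial cells.

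Neutrophils formed a class of 1042 cells after 35 Gy and of 7, 8 and 10 cells in the other libraries, so their levels are given for 35 Gy alone. Ifit3 was at 1307 CPM (1254 to 1361), Isg15 at 1207, Oas1a at 687 and Ifi27 at 415. Oasl was at 152 and Ifit2 at 134. After thinning to 1000 UMIs, 68.9% of 578 neutrophils carried 2 or more of the 40 members, and 464 cells were too shallow to enter. Summed epithelial markers were at 3911 CPM in the neutrophil class, although neutrophils are not known to make them.

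The share of cells carrying 2 or more members after thinning also differed between classes and libraries. In blood endothelial cells it was 34.5% in the control, 27.2% after 35 Gy, 45.1% in 5x7Gy_7d and 56.0% at day 14. In capillary cells it was 37.9%, 30.3%, 54.9% and 64.9%. Pericytes had 20.4%, 21.4%, 22.2% and 37.9%, fibroblasts 6.40%, 14.6%, 26.8% and 17.3%, and smooth muscle cells 6.25%, 7.52%, 15.1% and 12.4%.

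In macrophages the share was 32.4%, 17.6%, 31.1% and 33.2%, so the control and day 14 lay close together. Epithelial cells had the lowest shares, 1.30%, 2.26%, 1.73% and 2.39%, at median depths of 6851 to 18931 UMIs before thinning; unthinned they were 61.0%, 73.2%, 30.7% and 63.0%. No class is known to lack these genes, so the epithelial share is the lowest level against which the others can be read.

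**Figure D4:**
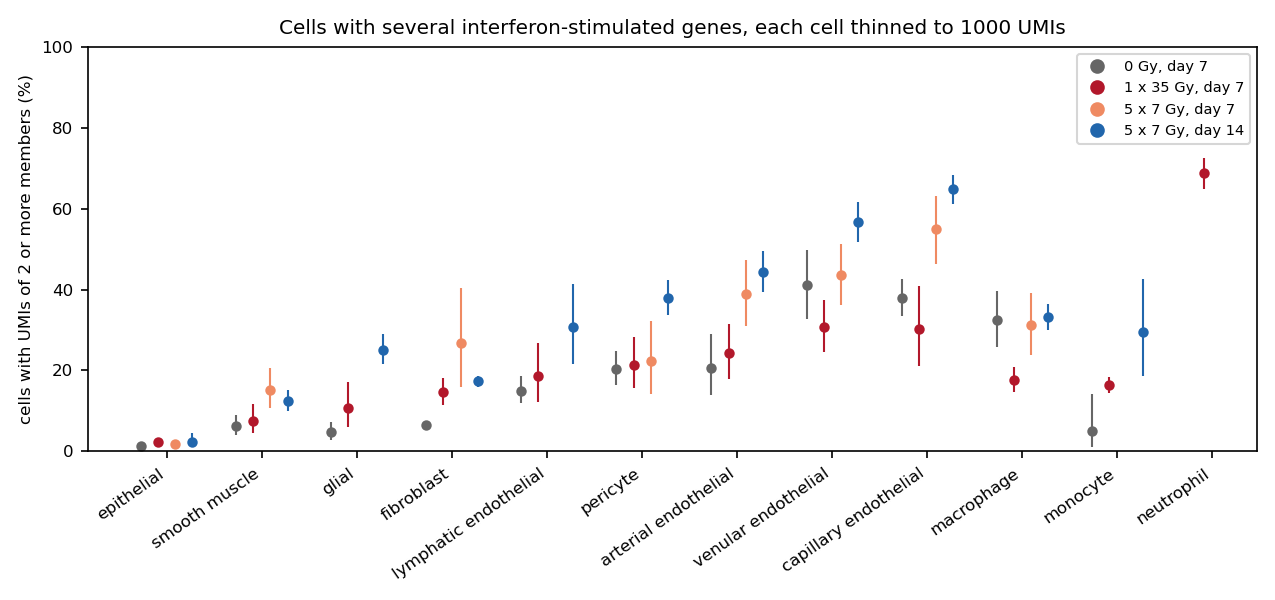
Percent of cells with UMIs of 2 or more of 40 members after each cell was thinned to 1000 UMIs, by class and library, with exact binomial 95% intervals that cover counting error only. Capillary endothelial cells run from 30.3% after 35 Gy to 64.9% at day 14. Glial cells run from 4.76% in the control to 25.1% at day 14, and epithelial cells stay between 1.30% and 2.39%.

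Irf1 and Cxcl10 were low in both day 7 irradiated libraries in every class of the plot of these genes. Irf1, the transcription factor induced by interferon gamma and by many other stimuli, was at 861, 33.1, 67.0 and 908 CPM in blood endothelial cells and at 173, 5.32, 2.43 and 210.5 in epithelial cells. It was at least 2-fold below the control in 8 of 8 classes after 35 Gy (median -4.96) and in 5 of 5 in 5x7Gy_7d (median -5.40). At day 14 it was above the control in 5 of 7 classes, in none at least 2-fold (median 0.08).

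Cxcl10 was at 360.5, 5.19, 26.5 and 256 CPM in blood endothelial cells and at 1865, 4.27, 0 and 539.5 in macrophages. In macrophages of 5x7Gy_7d it was at least 213-fold lower than in the control. Cxcl9 was at 68.8, 8.65, 18.3 and 77.7 in blood endothelial cells. The control and day 14 were thus the high libraries for all 3 genes in blood endothelial cells.

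Genes known to be induced by tissue dissociation and stress (14 genes, among them Fos, Jun, Egr1, Atf3 and Hspa1a) moved with them. Their summed level was 37272, 2742, 852 and 33731 CPM in blood endothelial cells, 57102, 2719, 583 and 49987 in macrophages and 21610, 2104, 568 and 21632 in epithelial cells. After 35 Gy all 14 were below the control in each of the 7 main classes. The part of handling in the Irf1, Cxcl9 and Cxcl10 values, and in those of the other members in these libraries, was not tested. The glial class had summed levels of 74912, 3066, 619 and 53613 CPM.

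**Figure D5:**
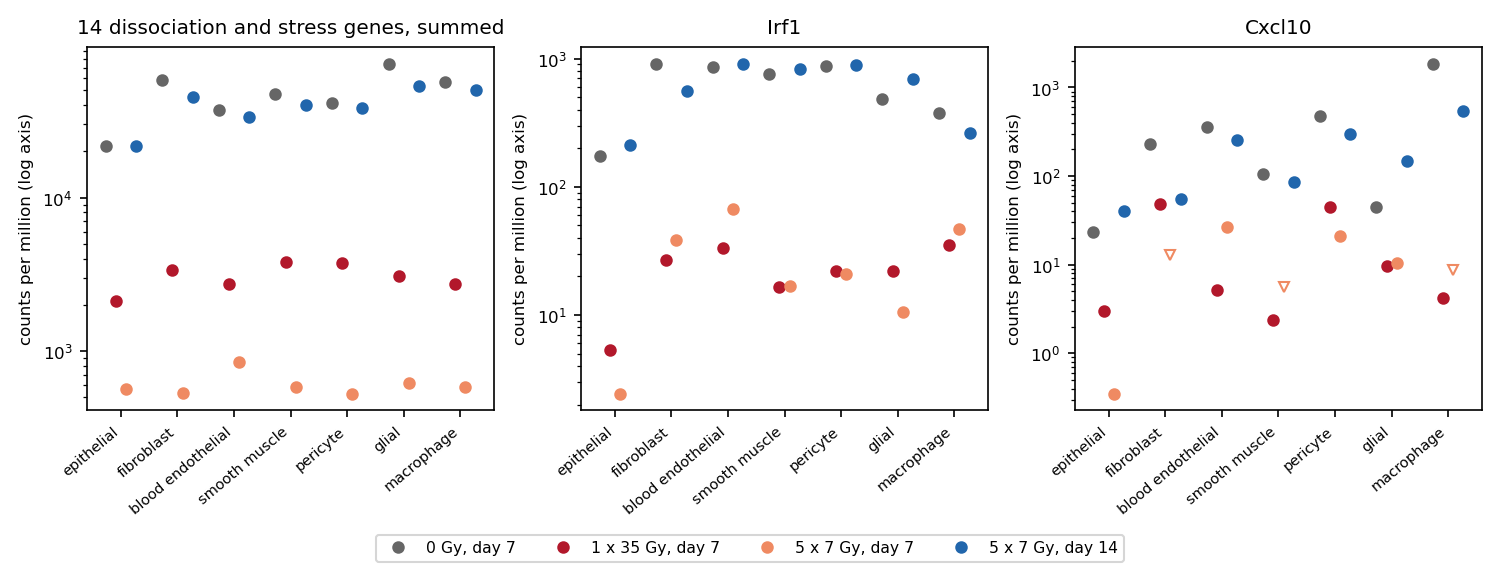
CPM on a log axis of 14 dissociation and stress genes summed, of Irf1 and of Cxcl10, in 7 cell classes, with 1 point per library and open triangles at 3 UMIs for counts of 0. The control and day 14 points lie above the points of both day 7 irradiated libraries in every class for the summed genes (37272 and 33731 against 2742 and 852 in blood endothelial cells) and for Irf1.

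Across classes at day 14, Mx2, Irf7 and Lgals3bp were at least 2-fold above the control in 7 of 7 classes, with medians of 2.29, 2.22 and 1.59, and Mx1 and Oas1a in 6 of 6, with medians of 2.90 and 2.30. Isg15 was above it in 6 of 7, the exception being macrophages at -0.52. Bst2 was below the control in 7 of 7 classes, at least 2-fold in 5 (median -1.33, from -1.80 to -0.70). Bst2 was also at least 2-fold lower in 5 of 5 classes in 5x7Gy_7d (median -1.23). Its promoter, shown above, holds the response element letters as those of Oas1a and Irf7 do.

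Lgals3bp was above the control in 8 of 8 classes after 35 Gy (7 at least 2-fold, median 1.69) and in 5 of 5 in 5x7Gy_7d (median 2.09). Oasl2 was at least 2-fold higher in 5 of 5 classes in 5x7Gy_7d (median 1.63). Isg15 after 35 Gy was higher in 6 classes and lower in 2. Reads of near-identical genes can be split or dropped in counting, so single values within the Oas and Oasl, Mx and Ifit families carry that uncertainty.

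Interferon genes themselves were hardly detected. Of the ligands only Ifnb1, interferon beta, reached 20 UMIs in a pair, in macrophages at day 14. It was at 13.5 CPM in the control (10 UMIs), 0 in both day 7 irradiated libraries, which allows up to 0.711 after 35 Gy and 8.75 in 5x7Gy_7d, and 13.3 at day 14 (48 UMIs). The control and day 14 macrophages thus had like levels. Ifng, interferon gamma, was found in T, NK and innate lymphoid cells with 11, 4, 0 and 7 UMIs in 25, 145, 78 and 94 cells.

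Interferon receptor genes were counted beside the members. In fibroblasts after 35 Gy 6 of 6 measured receptor genes were higher, 3 at least 2-fold (median 0.88). Ifngr1, the ligand-binding chain for interferon gamma, was at 140, 522, 205 and 167 CPM there. In macrophages Ifnar1, a chain of the type I receptor, was at 31.0, 121, 166 and 57.2 and Ifngr1 at 135, 401, 446 and 173. In blood endothelial cells 5 of 5 receptor genes were higher after 35 Gy, none at least 2-fold (median 0.29), beside the member median of -0.78.

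Jak2, a kinase of the interferon gamma receptor, in fibroblasts was at 26.2, 340, 38.4 and 50.3 CPM, 12.9-fold higher after 35 Gy than in the control. Samhd1, a dNTP hydrolase that restricts viruses, was at 0.667, 4.87, 0 and 9.87 in glial cells. In pericytes after 35 Gy all 7 measured genes of the sensing list were below the control, 4 at least 2-fold (all genes 13.3%). Among them were Cgas, the cytosolic DNA sensor, at -2.57 and Tlr3, a sensor of double-stranded RNA, at -1.17. Counts of this list are given for pericytes alone, a mixed class whose member median after 35 Gy changed sign under other settings.

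The class I antigen presentation list, apart from the members, held no gene at least 2-fold higher in 3 classes looked at for day 14. In glial cells 8 of 8 measured genes were above the control, none at least 2-fold (median 0.67). In blood endothelial cells 8 of 9 were above it, none at least 2-fold (median 0.26), and in fibroblasts 5 of 9 (median 0.08). B2m, the light chain of class I molecules, was at 2240, 2113, 1953 and 3016 CPM in glial cells.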

How the data were processed

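Raw UMI counts per gene and cell were used as deposited, with Cell Ranger 5.0.0 and the genome names mRatBN7.2 and rn7 given in the submitters' processing notes. The annotation release and the authors' cell filters are not given in the sources used here. The members, marker lists and pathway lists were chosen with earlier results of these data known. Symbols were summed over features (32623 features, 30017 symbols). A cell was kept with 200 or more genes, 500 or more UMIs and no more than 20% mitochondrial UMIs. Scrublet, run per library in scanpy 1.11.5, called 2.23% to 4.18% doublets, which were left out, against expected rates of 7.26% to 9.45%, so doublets may remain.

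Cells were classed by the mean z-score of log-normalised marker genes (149 of 160 marker symbols matched), with at least 2 markers detected and a margin of 0.2 over the next class. In the 7 main classes all matched markers were at least 2-fold above other cells. The share of a class within a margin of 0.4 ran from 1.27% to 3.39% in glial cells and from 4.95% to 9.83% in blood endothelial cells. UMIs were summed per library and class (scipy 1.17.1, pandas 2.3.3). Levels have exact Poisson intervals, ratios exact conditional binomial intervals and shares exact Clopper-Pearson intervals, all at 95% and for counting error only. A count of 0 was set to a floor of 3 UMIs for ratios. Medians are over genes with at least 20 UMIs in the pair, a minimum that can favour genes high in 1 library, and are given as descriptions. Members named were up to 4 higher and 4 lower per class and comparison by the interval bound nearest to 1, the highest levels, and members of a role group or pathway list described as a whole; genes of schedule, subtype and class contrasts beyond these were chosen after their values were seen. The share of all genes at least 2-fold higher or lower stands beside the first count of each comparison. Clusters were computed without the members (34 clusters, leidenalg 0.10.2). The steps were tested on simulated data. Of the 69 listed pathway genes, 65 were matched.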

Additional observations from a re-analysis of the deposited data

Results flagged for a closer look

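After 35 Gy the member medians of cell classes lay on opposite sides of the control. In fibroblasts the median log2 ratio was 0.44 and in blood endothelial cells -0.78, a difference of 1.21. In pericytes it was -0.41, a difference of 0.85 from fibroblasts. The blood endothelial class held 548 capillary cells of 1058 in the control and 107 of 687 after 35 Gy, and its subtypes had medians of -0.99 (venular), -0.20 (capillary) and -0.27 (arterial). Fibroblasts after 35 Gy lay mostly in a cluster with 582 cells of that library and 0 of the control. With 1 pooled library on each side these differences were not tested. Every cell weighted equally, the pericyte median was 0.32, on the fibroblast side, while the blood endothelial median stayed between -0.85 and -0.42 in the 8 alternatives run. Summed neutrophil markers after 35 Gy were at 892 CPM in the blood endothelial class and at 157.5 in the fibroblast class, and their part was not tested.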

How the results depend on the processing

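Each median was recomputed with doublets kept, median-of-ratios scaling, no minimum or a minimum of 100 UMIs, every cell weighted equally, clusters in place of gates, stricter cell filters (at least 500 genes and 1000 UMIs, at most 10% mitochondrial UMIs) and, added after the data were seen, without cells near a gate. Of 159 such medians 155 stayed within the interval that the spread of member ratios gives the main median. Day 7 medians of the lymphatic, pericyte, macrophage and smooth muscle classes changed sign under some settings. For pericytes after 35 Gy and smooth muscle in 5x7Gy_7d the interval of the main median had lain clear of 0. No day 14 median changed sign. With every cell weighted equally the pericyte median after 35 Gy was 0.32 (main -0.41). With a minimum of 100 UMIs it was -2.23 over 5 members in smooth muscle in 5x7Gy_7d (main 0.94), -0.35 in lymphatic cells after 35 Gy (main -0.06) and -2.84 in macrophages in 5x7Gy_7d (main -0.47, and 0.38 with no minimum). The day 14 medians ran from 1.39 to 1.52 in glial cells, 0.69 to 0.80 in blood endothelial cells, 0.67 to 0.82 in fibroblasts and 0.69 to 0.93 in epithelial cells. Of 318 counts of members past 2-fold, 54 moved by over 1.5 times. At 100 UMIs, with fewer genes tested, the day 14 counts higher were 15 of 20 in glial cells (27 of 35), 8 of 18 in smooth muscle (19 of 36), 4 of 20 in epithelial cells (15 of 36) and 5 in pericytes (12), and the blood endothelial count lower after 35 Gy was 7 of 27 (14 of 41). Smooth muscle counts were 9 under stricter filters and 12 with clusters at day 14, and 6 with clusters in 5x7Gy_7d (11). The pericyte count lower after 35 Gy was 5 with every cell weighted equally (9), and the glial count higher after 35 Gy was 0 at 100 UMIs and 18 with no minimum (6). Of 938 recomputed ratios of single members, 48 moved, and none whose main interval lay clear of 0 changed sign. The causes were not tested. No paired analysis was possible because each group is 1 pooled library. Depth limits the 5x7Gy_7d fibroblast (75 cells) and glial (59 cells) levels most.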
